A study of Mus musculus with 9 samples.

Results

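Of the 10 pluripotency factor genes Pou5f1, Nanog, Sox2, Klf2, Klf4, Esrrb, Zfp42, Lin28a, Prdm14 and Tfcp2l1, 6 had a CHD7 peak in their regulatory domain in cardiac progenitor (CP) cells. Together they had 10 of the 3761 peaks in the deposited CHD7 list, and each of these peaks was counted for 1 member gene only. The rule for the members uses their names and peak positions, and the list of names was drawn up with earlier results of these data known. A peak was assigned to a gene when its midpoint fell in the gene's regulatory domain. This domain has a basal part around the transcription start site (TSS), reaching 5 kb upstream and 1 kb downstream, and extends both ways until it meets the basal part of a neighbouring gene or has run for 1 Mb. The rule was applied to 21911 protein-coding genes, of which 4978 (22.7%) had a peak in their domain. This share was larger in longer domains. The members had a median domain of 361 kb, against 90.2 kb for all genes.

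The cells were wild-type (WT) CP cells, collected on day 5 of cardiomyocyte differentiation from mouse embryonic stem cells (ESC). The ESC line came from C57BL6 mice and was kept in medium with 2i and LIF. In CUT&RUN, an antibody holds a nuclease at the protein of interest and the released DNA fragments are sequenced. The study made 9 libraries from 500000 cells each, with 3 biological replicates for anti-CHD7 (CST 6505), for IgG as negative control and for input, which received no antibody. The list joins the 3 anti-CHD7 replicates and gives positions only, so the depth of each library, the height of a peak and the spread between replicates are unknown here, and no value below carries a replicate error. The identity of the cells could not be checked against marker genes, since peak positions hold no expression.

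CHD7 is a chromatin remodeller that moves nucleosomes with the energy of ATP, and it is found mainly at enhancers. OCT4 (encoded by Pou5f1), SOX2 and NANOG form the core of the network that keeps ESCs pluripotent, and they bind the enhancers of their own genes and of each other. KLF2, KLF4, ESRRB, TFCP2L1 and PRDM14 sustain the naive state of this network, whose genes are silenced in most lineages when cells differentiate, while Sox2 is used again in neural progenitors.

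The sequences printed here are the central 300 bases of 5 of the 10 peaks, read from GRCm38.p6 on the plus strand, 5′ to 3′. The Nanog peak is shown because it was the only one to overlap a regulatory region that RefSeq names, the Klf4 peak because it lay nearest to a TSS of a member, and the Prdm14 peak because it held 3 of the 4 motif matches. The Sox2 peak nearest to its TSS and the downstream Esrrb peak are shown to set a window with many CpG dinucleotides beside one with a single CpG.

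In the Nanog window, at chr6:122702486-122702785, capitals mark the 47 bases covered by the 2 binding sites that RefSeq annotates in the peak.
Nanog, upstream peak: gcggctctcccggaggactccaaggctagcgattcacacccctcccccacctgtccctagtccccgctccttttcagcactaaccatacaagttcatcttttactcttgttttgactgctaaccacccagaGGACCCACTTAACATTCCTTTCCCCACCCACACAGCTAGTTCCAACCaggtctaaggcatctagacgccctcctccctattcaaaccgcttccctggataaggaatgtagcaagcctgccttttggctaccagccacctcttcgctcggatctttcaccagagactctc

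In the next 3 windows capitals mark every CpG. The Klf4 window is at chr4:55533308-55533607 with 8 CpGs, the Sox2 window at chr3:34615506-34615805 with 13, and the Esrrb window at chr12:86603500-86603799 with 1.
Klf4, upstream peak: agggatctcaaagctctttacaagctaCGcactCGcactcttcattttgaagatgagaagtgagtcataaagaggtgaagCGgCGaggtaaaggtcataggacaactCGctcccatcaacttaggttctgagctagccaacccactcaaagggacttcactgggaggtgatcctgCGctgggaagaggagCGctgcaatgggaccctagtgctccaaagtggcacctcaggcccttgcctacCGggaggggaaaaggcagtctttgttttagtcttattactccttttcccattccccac
Sox2, proximal of the upstream peaks: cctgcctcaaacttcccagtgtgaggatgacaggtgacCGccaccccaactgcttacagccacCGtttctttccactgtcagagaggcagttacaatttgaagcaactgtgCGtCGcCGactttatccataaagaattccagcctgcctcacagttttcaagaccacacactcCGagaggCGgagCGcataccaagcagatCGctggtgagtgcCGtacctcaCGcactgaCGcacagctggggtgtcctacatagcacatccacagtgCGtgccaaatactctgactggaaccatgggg
Esrrb, downstream peak: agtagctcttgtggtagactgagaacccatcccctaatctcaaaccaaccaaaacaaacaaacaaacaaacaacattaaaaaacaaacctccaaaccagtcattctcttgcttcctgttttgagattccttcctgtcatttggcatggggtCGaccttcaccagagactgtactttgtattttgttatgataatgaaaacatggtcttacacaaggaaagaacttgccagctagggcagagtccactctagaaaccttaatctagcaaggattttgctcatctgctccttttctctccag

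In the Prdm14 window, at chr1:13239841-13240140, capitals mark, from left to right, a POU octamer and a GATA motif, both read on the minus strand, and a SOX motif on the plus strand.
Prdm14, upstream peak: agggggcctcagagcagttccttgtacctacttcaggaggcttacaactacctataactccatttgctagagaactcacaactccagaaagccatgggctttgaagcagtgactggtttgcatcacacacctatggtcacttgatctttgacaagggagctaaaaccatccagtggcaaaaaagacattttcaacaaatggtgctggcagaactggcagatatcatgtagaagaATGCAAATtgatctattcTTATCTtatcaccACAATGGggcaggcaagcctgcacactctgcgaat

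Among the core factors, Nanog and Sox2 had peaks and Pou5f1 had none. Nanog, a homeodomain factor on chromosome 6, had 1 peak, at chr6:122702347-122702924, with its midpoint 4932 bp upstream of the TSS. This peak lay between genes, was 578 bp wide and was assigned by its midpoint to no other gene. The midpoint fell close to the edge of the basal domain, 5 kb upstream, and part of the peak lay beyond it in the domain of Dppa3. Only 4.06% of all protein-coding genes had a peak nearer to their TSS.

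Sox2, which encodes the HMG-box partner of OCT4, had 2 peaks, both upstream, in a domain of 1560 kb on chromosome 3. The nearer, at chr3:34615407-34615904, lay 34749 bp from the TSS in a noncoding exon of Sox2ot, the long noncoding transcript that spans Sox2. The farther, at chr3:34305164-34305795, lay 344925 bp from the TSS in intron 2 of Sox2ot. Both were also assigned to Dnajc19, which encodes a protein of the mitochondrial inner membrane, and the farther peak was closer to the Dnajc19 TSS, at 224159 bp, than to that of Sox2. Downstream of its nearer peak, Sox2 lay in a stretch of 1.84 Mb without a peak, which began 34.7 kb upstream of the TSS and held the TSSs of 8 protein-coding genes. Of 3740 gaps between neighbouring peaks in the genome, 297 were longer, and the median gap was 276 kb.

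Pou5f1, on chromosome 17, had the shortest domain of the members, at 41.1 kb. Its nearest peak, at chr17:35575241-35576185, lay 69695 bp downstream of the TSS, with the TSSs of 5 other protein-coding genes in between. That peak was assigned to 2300002M23Rik and Gm9573. For comparison, 28.6% of all genes had a peak nearer to their TSS than Pou5f1 did.

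Of the Krüppel-like factors, Klf4 had a peak beside its promoter and Klf2 had none. The Klf4 peak, at chr4:55532909-55534007, had its midpoint 992 bp and its nearer edge 443 bp upstream of the TSS, and it was the only peak in a domain of 1180 kb. At 1099 bp it was the widest of the member peaks, wider than 77.0% of all peaks, and 2.07% of genes had a peak nearer to their TSS. The nearest peak to Klf2 lay 410727 bp upstream, at chr8:71907488-71909123, 302 bp from the TSS of Zfp882 and beyond the TSSs of 15 protein-coding genes. Klf2 lay in a gap between peaks of 1.89 Mb, of which 2.64% has no sequence in the assembly, and 289 gaps were longer.

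Esrrb, Tfcp2l1 and Prdm14 had 6 peaks together, none of them within 10 kb of the TSS. Esrrb, an orphan nuclear receptor on chromosome 12, had a peak at chr12:86379027-86379606 in its own intron 1. It lay 42327 bp upstream of the TSS used here and 18200 bp downstream of another Esrrb TSS. Its second peak, at chr12:86603376-86603924, lay 182006 bp downstream between genes. The first was also assigned to Gpatch2l. The second was also assigned to Vash1, which encodes vasohibin, and lay closer to the TSS of that gene, at 75050 bp.

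Tfcp2l1, a grainyhead-family factor on chromosome 1, had 3 peaks, the most of any member, and 116 of all genes had more. Upstream, the peak at chr1:118458744-118459504 lay 168822 bp from its TSS in intron 2 of Clasp1, which encodes a microtubule-binding protein, and only 464 bp from an alternative Clasp1 TSS. The Clasp1 TSS that set its domain was also nearer than Tfcp2l1, at 70066 bp. The peak at chr1:118595546-118596186, also within Clasp1 (intron 39), lay 32080 bp upstream of Tfcp2l1 and 8861 bp from a Clasp1 TSS. The downstream peak, at chr1:118800930-118801388, lay 173213 bp from the TSS between genes and was shared with Gli2, a transcription factor of Hedgehog signalling whose TSS was 252460 bp away. Prdm14, a PR-domain zinc finger protein also on chromosome 1, had 1 peak, at chr1:13239706-13240275, 112828 bp upstream in intron 2 of Ncoa2. Ncoa2 encodes a nuclear receptor coactivator and shared this peak.

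Zfp42, which encodes the zinc finger protein REX1, and Lin28a, an RNA-binding protein that blocks the maturation of let-7 microRNAs, had no peak. The nearest peak to Lin28a lay 190924 bp downstream, at chr4:133827675-133828158, in the domains of Arid1a and Rps6ka1. For Zfp42 the nearest peak was 4274952 bp away, and 96.6% of all genes had a nearer one. Zfp42 lay in a stretch of 9.63 Mb of chromosome 8 without any peak, which held the TSSs of 55 protein-coding genes, and 9 of the 3740 gaps were longer. Of this stretch, 0.206% has no sequence in the assembly.

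**Figure D1:**
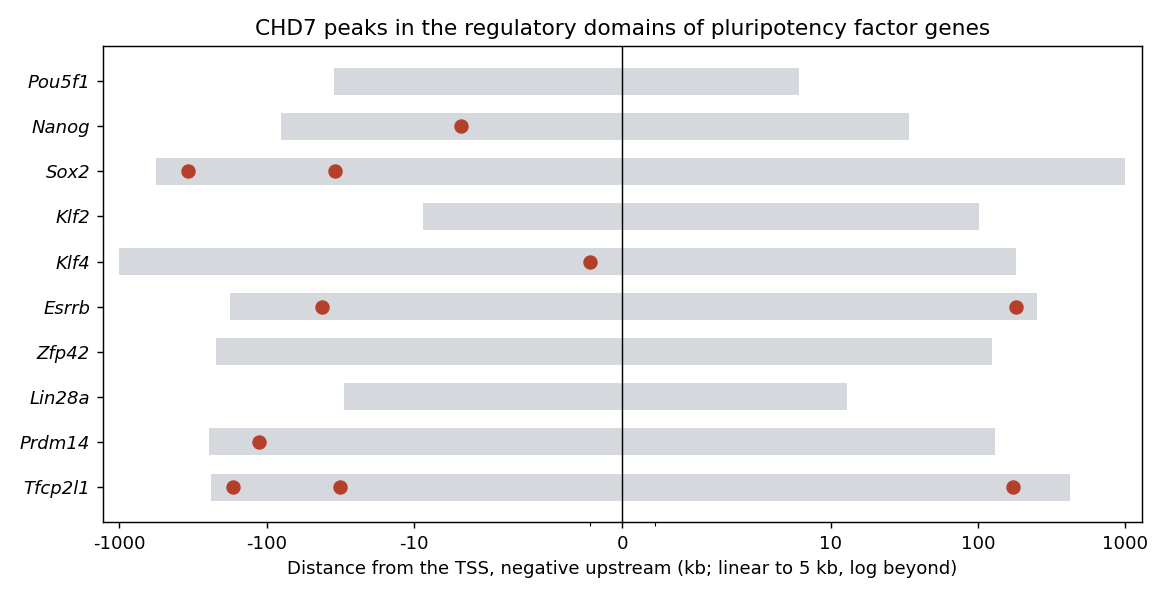
Position of the 10 CHD7 peaks (points) in the regulatory domains (grey bars) of the 10 genes, as distance from the TSS in kb, negative upstream, linear to 5 kb and logarithmic beyond. Pou5f1, Klf2, Zfp42 and Lin28a have no point, 8 of the 10 points lie upstream, and only those of Nanog and Klf4 lie within 5 kb.

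**Figure D2:**
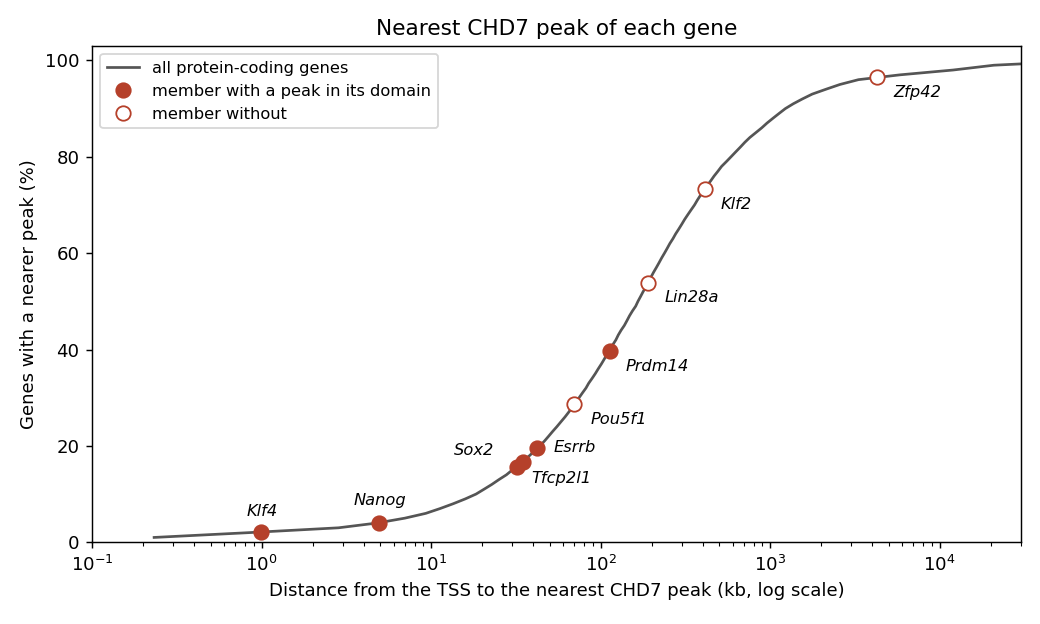
Distance from the TSS to the nearest CHD7 peak (kb, log scale) against the percentage of protein-coding genes with a nearer peak; the line is all genes, filled points are members with a peak in their domain and open points members without one. The members run along most of the curve, from Klf4 at 0.992 kb to Zfp42 at 4270 kb, and Pou5f1 lies nearer to a peak than Prdm14 although its shorter domain holds none.

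The 6 members with a peak were 60% of the list (Wilson 95% confidence interval 31.3 to 83.2, for counting error only), beside 22.7% of all protein-coding genes. The domains of the members were longer than usual, with a median of 361 kb against 90.2 kb for all genes, and the share of genes with a peak was larger in longer domains. Under 50 kb it was 8.87%, and neither Pou5f1 nor Lin28a had a peak. From 50 to 150 kb it was 17.8%, and Nanog had a peak while Klf2 did not. From 150 to 500 kb it was 37.8%, with peaks at Prdm14 and Esrrb but not at Zfp42, and over 500 kb it was 44.8%, with peaks at Tfcp2l1, Sox2 and Klf4. The part of domain length in the count over the members was not tested. Per Mb of domain, the members had 2.05 peaks and all genes 1.48. By single gene the value was 8.75 for Nanog, 4.64 for Esrrb, 4.53 for Tfcp2l1, 2.65 for Prdm14, 1.28 for Sox2 and 0.846 for Klf4. It was 0 for Pou5f1, Klf2, Zfp42 and Lin28a, which had no peak. Below the value of all genes thus lay Sox2 and Klf4, which have the longest domains, and the members without a peak. Among the latter, Pou5f1 and Lin28a have the shortest domains.

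Within the basal domain, 2 of the 10 members had a peak (Nanog and Klf4), beside 3.17% of all genes. Of the 10 pairs of member and peak, 8 were over 10 kb from the TSS, against 81.5% of all 6818 gene and peak pairs. Upstream of the TSS used here lay 8 of the 10, against 44.0% of all pairs. The count depends on that choice, since the intronic Esrrb peak lay downstream of another Esrrb TSS. The median absolute distance was 77.6 kb for the members and 57.4 kb for all pairs.

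Other genes share most of these peaks. The peaks at Nanog and Klf4 were assigned to no other gene, and the remaining 8 were each assigned to 1 more. With 1 TSS per protein-coding gene, the member was the nearest gene in 7 of the 10 pairs. With alternative TSSs of these genes added, it was the nearest in 5. Alternative TSSs of Clasp1 and Ncoa2 then lay nearer to the Tfcp2l1 peak 32080 bp upstream and to the Prdm14 peak. Both counts leave out noncoding genes and pseudogenes. With those included, the Klf4 peak and the intronic Esrrb peak stayed nearest to their own gene. The pseudogene Gm10224 then lay nearest to the Nanog peak, at 3608 bp. The lincRNA Gm42205 lay nearest to the nearer Sox2 peak, at 13408 bp. The pseudogene Gm28467 lay nearest to the downstream Tfcp2l1 peak, at 8977 bp. The list gives positions alone and does not show which gene a peak acts on.

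Most member peaks were narrower than the median peak. Their median width was 579 bp, with a range of 459 to 1099 bp, against a median of 703 bp for all peaks, and 8 of the 10 were narrower than that. The member median lay between the quartiles of all peaks, 530 and 1053 bp. When only peaks wider than the median were kept, 2 members still had a peak, Klf4 and Tfcp2l1, and 2853 of all genes did.

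Other gene lists gave shares of a like size. Of 20 other genes of the pluripotency network, 10 had a peak (50%, 95% CI 29.9 to 70.1), led by Il6st with 5 peaks, the signal transducer of LIF and related cytokines, and Jarid2 with 4, a cofactor of Polycomb repressive complex 2. They were followed by Tbx3 with 3 and by Lifr, the LIF receptor, and Nr5a2, a nuclear receptor, with 2 each. Jarid2 and Tdgf1, the Nodal co-receptor, had a peak in their basal domain. Of 12 genes of the formative and primed states, 7 had a peak (58.3%, 95% CI 32.0 to 80.7), with 3 each at Otx2, a homeodomain factor, and Dnmt3a, a de novo DNA methyltransferase, then 2 at Etv5 and 1 each at Foxd3 and Lef1. Pou3f1, the POU factor of primed cells, had 1 in its basal domain. Of 16 cardiac progenitor factors, 10 had a peak (62.5%, 95% CI 38.6 to 81.5), with 3 each at Gata6 and Meis1 and 2 each at Gata4, Hand2 and Tbx5, and Meis1 had peaks in its basal domain. The median domain was 223 kb, 381 kb and 300 kb in these lists, and the intervals of all 4 lists overlapped. Lists can share a peak, since the peak 35849 bp downstream of the Tbx3 TSS was also counted for Tbx5. Per Mb of domain they held 2.39, 2.49 and 1.74 peaks.

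**Figure D3:**
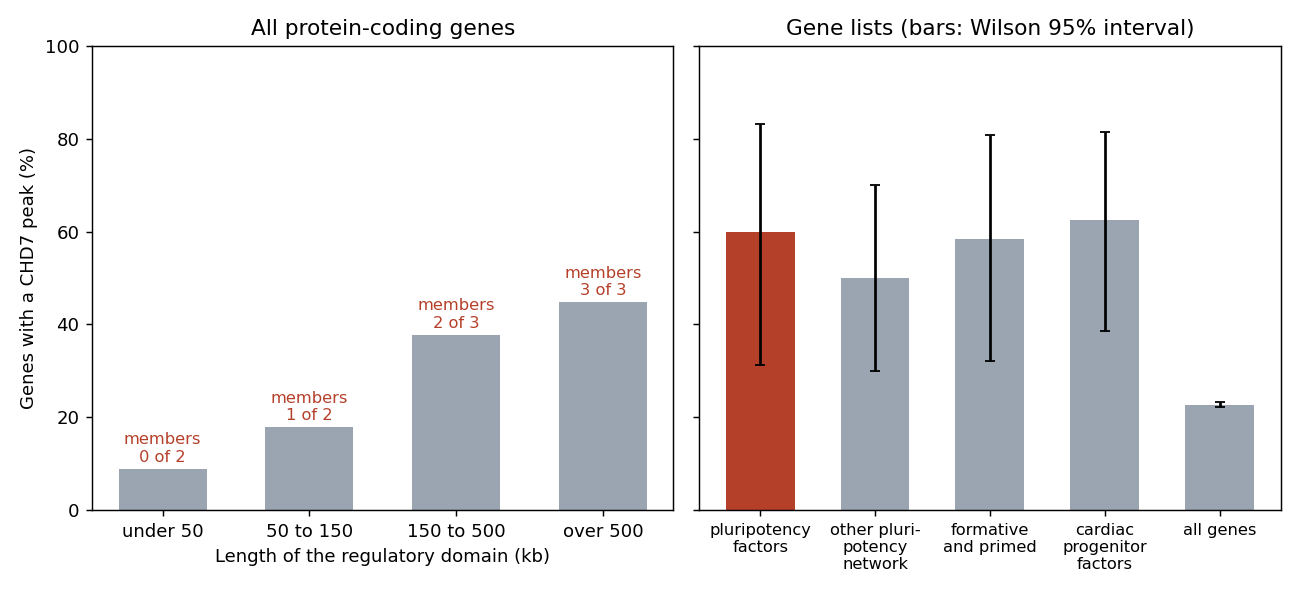
Left, percentage of all protein-coding genes with a CHD7 peak by length of the regulatory domain in kb, with the number of pluripotency factor genes with a peak in each class. Right, percentage of genes with a peak in each list, with Wilson 95% intervals for counting error only. The bars of the 4 lists stand between 50% and 62.5%, with intervals that overlap, and that of all genes at 22.7%. The lists were chosen with earlier results of these data known, and their median domains, 223 to 381 kb, were longer than the 90.2 kb of all genes. A difference from all genes was not tested.

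RefSeq names 11 regulatory regions in the domains of the members, from published experiments, and the CHD7 list was set against them in a comparison chosen after the data were seen. A peak overlapped 1 of the 11, the Nanog 5′ regulatory region, beside 2.93% of the 888 such regions in the mouse annotation. By these annotated positions, the whole Nanog peak lay inside the DNase I hypersensitive site of this region that is named for its place 5 kb upstream (chr6:122702195-122702995), whose coordinates RefSeq gives as approximate. It covered 401 of the 404 bases of an annotated enhancer fragment (chr6:122702524-122702927) and both annotated binding sites of that fragment, a Nanog site (chr6:122702617-122702650) and a KLF probe (chr6:122702624-122702663). These are the bases in capitals in the Nanog sequence printed above. RefSeq also records a regulatory interaction of this region with Dppa3, a germline gene that is also among the other genes of the pluripotency network below. No peak midpoint lay in the Dppa3 domain, and its nearest peak, 76226 bp from its TSS, was this same Nanog peak, which partly overlapped that domain. Dppa3 is given here after its value was seen.

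The other 10 regions held no peak. The Pou5f1 5′ regulatory region (chr17:35501331-35506102), which reaches the TSS, was 69.1 kb from the nearest peak. A second Nanog enhancer, 44.4 kb upstream of the TSS (chr6:122661585-122664705), was 37.6 kb from the Nanog peak. At Sox2, the 5′ regulatory region (chr3:34645930-34650232) was 30.0 kb from a peak and the SRR2 enhancer (chr3:34653715-34654096) 37.8 kb. The Sox2 control region, a distal enhancer of ESCs 109 kb downstream (chr3:34755799-34762535), was 140 kb from a peak. The other Sox2 elements, 2 downstream enhancers and 2 elements of the VISTA enhancer collection, lay 52.2 to 788 kb from a peak. The Esrrb enhancer cluster (chr12:86496798-86505014), 79.3 kb downstream of the TSS, fell between both Esrrb peaks, 98.4 kb from the nearer. RefSeq names no such region in the domains of the other members in this annotation, and the 9 other member peaks overlapped none. Regions outside a member's domain were not searched for links to it. These distances describe a list of called peaks, and CHD7 below the calling threshold would not appear in it.

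**Figure D4:**
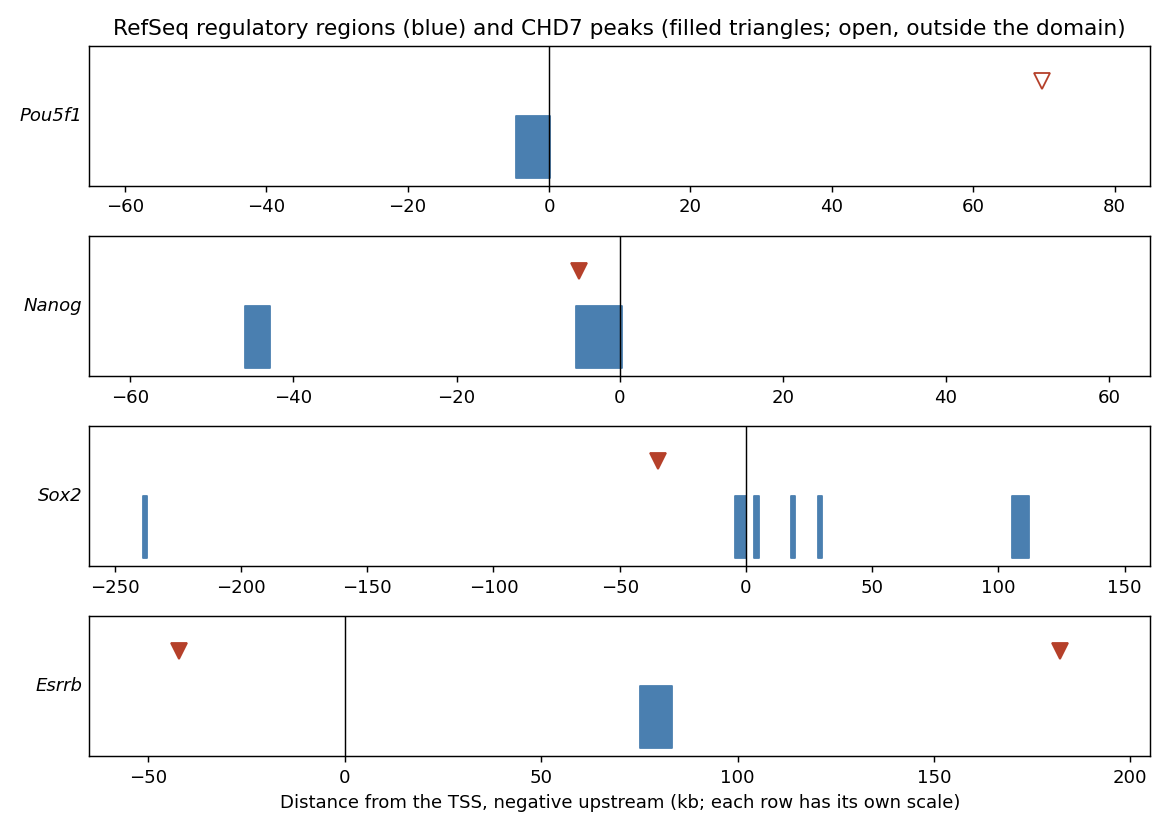
RefSeq regulatory regions (blue blocks) and CHD7 peaks (triangles at their midpoints, open where the peak lies outside the domain) around the TSS (line) of Pou5f1, Nanog, Sox2 and Esrrb, as distance from the TSS in kb on a scale of its own for each gene. Only the peak 4.93 kb upstream of Nanog stands over a block, and the outermost region and peak of Sox2 lie beyond the window.

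In base composition the member peaks left a gap in CpG ratio, across which their GC content overlapped. The GC content of the central 300 bases had a median of 48.3% in the member peaks, with a range of 41.0 to 54.3%, and the median of all peaks was also 48.3%. The CpG observed to expected ratio, which compares the number of CpGs with that given by the C and G content, had a median of 0.127 in the member peaks and 0.208 in all. Above the upper quartile of all peaks, 0.341, stood 4 member peaks. They were the peak within Clasp1 168822 bp upstream of Tfcp2l1 at 0.611, the nearer Sox2 peak at 0.599, the Nanog peak at 0.448 and the Klf4 peak at 0.405. The other 6 ranged from 0.066 at Prdm14 to 0.141 at the farther Sox2 peak, below the median of all peaks. GC content ran from 47.0 to 54.3% in the first 4 and from 41.0 to 53.3% in the other 6, where most values were lower. A division of the 10 peaks was not tested. Repeats masked in the assembly covered at most 8.0% of the window in the first 4 peaks and from 7.67% to 68.0% in the other 6, with 54.0% at Prdm14, so that the ranges overlapped.

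**Figure D5:**
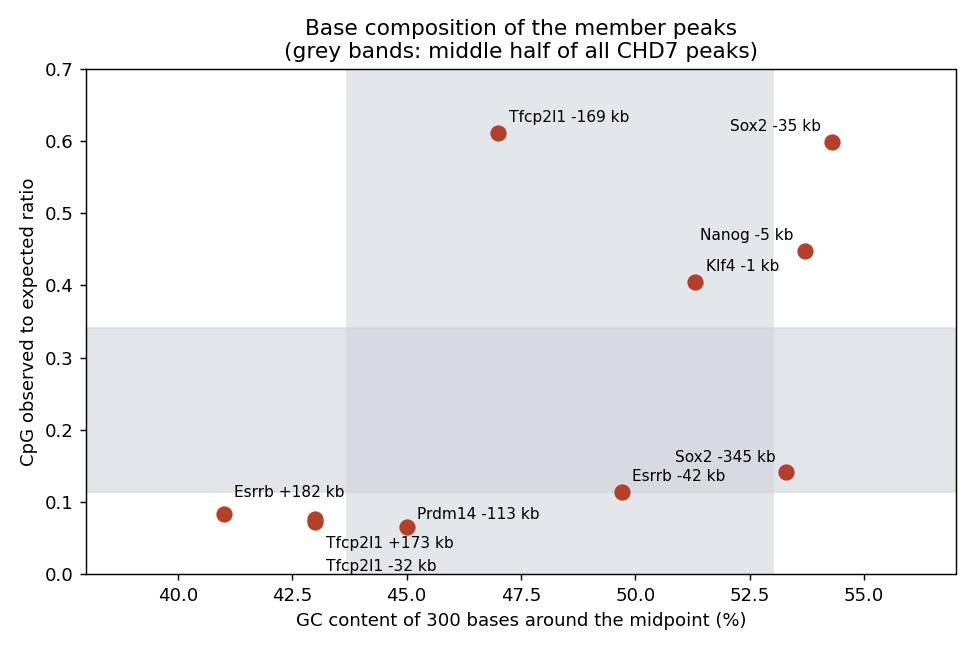
GC content (%) against CpG observed to expected ratio in the central 300 bases of each member peak, labelled by gene and distance from its TSS, with bands for the range between the quartiles of all 3761 peaks. The peaks at Klf4, Nanog, the nearer Sox2 site and the Tfcp2l1 site 169 kb upstream stand above 0.341, and the other 6 at or below 0.141.

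The central 300 bases were searched on both strands for the POU octamer ATTTGCAT, the SOX motif as ACAATGG or AACAATG, the KLF motif CCACACCC, the GC box GGGCGG, the ESRRB motif CAAGGTCA, the GATA motif AGATAA and the CTCF consensus. The search did not leave out masked repeats. The Prdm14 peak held a POU octamer, a GATA and a SOX match, 84, 102 and 115 bases from its midpoint. Masked repeats covered 54.0% of this window, and whether the matches fall in them was not recorded. The downstream Tfcp2l1 peak held a GC box. In this window the remaining 8 member peaks held no match to any of the 7 motifs, and no member peak matched the KLF, ESRRB or CTCF motif. In all 3761 peaks, windows of the same length held the POU octamer in 1.86%, SOX in 7.37%, KLF in 3.22%, the GC box in 11.2%, ESRRB in 2.21%, GATA in 17.4% and CTCF in 0.984%. The counts changed with the window. Over the whole peak, GATA matched in 5 of the 10 member peaks and in 36.8% of all peaks, the GC box in 3 and in 23.4%, and the POU octamer in 2 and in 4.73%. Within 200 bases, GATA matched in 0 member peaks and in 11.8% of all, and SOX in 0 and in 5.4%. With 10 member peaks, none of these counts is read as a difference from all peaks. The absence of a match says only that these letters are not in the window. The Nanog window holds an annotated KLF probe without the exact KLF letters searched.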

How the data were processed

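Per the labels and the paper's methods, the authors trimmed reads with fastp 0.20.1, aligned them to mm10 with BWA 0.7.17.4, removed duplicates by molecular identifiers, called peaks per sample with MACS2 2.1.2 against IgG and kept peaks that overlapped in at least 2 of the 3 replicates. The deposited values are the start and end positions of the resulting peaks, in bp. No count or signal goes with them. Neither the threshold of the calls nor how overlapping peaks were joined is given in the sources used here, depth per sample is unknown, and no IgG or input values were analysed here. The number of peaks sets the precision.

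Peaks were placed on GRCm38.p6 with GENCODE M21, taking 1 TSS per protein-coding gene, and starts were read as counted from 0. Genes were associated by the basal plus extension rule. Regulatory regions were those named in the RefSeq annotation of GRCm38.p6 and counted with an overlap of at least 1 bp. Values are descriptions without a test, since the 10 members and the comparison lists were chosen with earlier results of these data known. Besides all members, the text names every gene that shares a member peak and, of each other list, the genes with a peak in the basal domain and the 5 with the most peaks. The association and the motif search were tested on simulated peaks and planted motifs. Alternatives were other TSSs, association rules, peak widths and windows. The work was done with samtools 1.23.1, pysam 0.24.0, scipy 1.17.1, matplotlib 3.10.9, pandas 2.3.3 and numpy 2.4.6 under Python 3.11.15.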

Additional observations from a re-analysis of the deposited data

How the results depend on the processing

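The 6 members with a peak and the 10 pairs of member and peak held, within 1.5 times, with the most upstream TSS, with lincRNA genes as neighbours, with an extension limit of 500 kb, with the single nearest TSS and with any base of the peak in the domain. The lowest of these counts was 7 pairs, with the single nearest TSS. Counts of single members moved within these totals. With lincRNA genes as neighbours Sox2 had 1 peak instead of 2. With the single nearest TSS Sox2 and Esrrb had 1 each instead of 2, and Tfcp2l1 had 2 instead of 3. Under the basal domain alone there were 2 members and 2 pairs. With only the peaks wider than the median there were 2 members and 2 pairs, of which 1 was over 10 kb from the TSS, the median distance to the nearest peak rose from 56.0 to 361 kb, and 0 RefSeq regions were overlapped. These settings leave fewer peaks or shorter domains by their construction. GC content and CpG ratio held with the whole peak and with 200 bases. Motif counts moved with the whole peak and with 200 bases, as did the shares of all peaks. The alternatives for the nearest peak and for the RefSeq regions were chosen after seeing the data. No paired analysis was possible because the list joins the replicates, which is also why leaving out a replicate was not run. The list gives no depth and no height, so a weak or missed peak cannot be told from none.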
